A study of Mus musculus with 28 samples.

Results

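The regions described here are stretches of the mouse autosomes that carried chromatin state U1 in wild-type (WT) fibroblasts and state U2 in fibroblasts without SIRT7 (KO), with the same answer under both treatments. They were chosen from 4 deposited segmentations, 1 for each genotype and treatment (NT or GS, hence WT-NT, KO-NT, WT-GS and KO-GS), as the maximal runs of 200 bp bins that were U1 in both WT segmentations and U2 in both KO segmentations over at least 1 kb on chromosomes 1 to 19. The rule gave 813 regions, of 246922 runs of at least 1 kb over which the combination of the 4 states did not change. Because the states themselves chose the regions, the values below describe them and test nothing. For short, these regions are called gained, and the 7051 regions of the mirror pattern, U2 in both WT and U1 in both KO, are called lost.

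The cells were primary mouse embryonic fibroblasts (MEFs) of strain 129s2, taken at 14.5 days and used at passages 3 to 4, either WT or SirT7-/-, and every group was NT or GS. The labels do not spell out NT and GS, and the title of the series names glucose starvation. Each segmentation was made for H3K27me3 and mH2A1 ChIP-seq libraries, 2 of each target per genotype and treatment, and the SIRT7 ChIP-seq came from WT cells only, with 2 libraries and 1 deposited peak list per treatment. Neither the number of embryos behind a culture nor the sex of the cells is given in the labels.

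H3K27me3 is the histone mark written by Polycomb repressive complex 2, and in fibroblasts it is known for covering silent developmental genes and long gene-poor tracts. MacroH2A1.1 is a splice form of a histone H2A variant with a large extra domain that binds ADP-ribose, and macroH2A chromatin is known to form broad domains that often overlap those of H3K27me3. SIRT7 is a nuclear sirtuin, an enzyme that uses NAD to remove acyl groups from proteins. The sources used here do not say which marks U1 to U4 stand for, or whether the states were defined jointly across the segmentations. The states therefore keep their names. Each comparison of WT with KO below takes a state name to mean the same in every segmentation, which was not tested. U2, U3 and U4 are together called marked, which means only a state other than U1. Whether U1 stands for the absence of marks was not tested.

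Stretches with more U2 in KO than in WT under both treatments were rare. Bins in the pattern made up 0.0943% of all autosomal bins, and 0.143% of the 8142495 bins that were U1 in both WT segmentations. The 813 regions covered 2048.6 kb, or 0.0829% of the autosomes. Lost regions numbered 8.67 times as many and covered 10.9 times the length, 22395.2 kb, and 5.64% of bins that were U2 in both WT were U1 in both KO.

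Among all mixtures of U1 and U2 over the 4 segmentations, the gained pattern gave the fewest regions. There are 14 such mixtures, and the next fewest were U2 in all but WT-GS with 2393 regions and U2 in all but WT-NT with 2630. The mixtures that follow the treatment, U2 in both GS or in both NT segmentations, had 3614 and 2972 regions. In the crossed mixtures the genotypes differed in opposite directions in NT and in GS. These had 3778 regions for U2 in WT-GS and KO-NT and 3551 for U2 in WT-NT and KO-GS. That is 4.65 and 4.37 times the number gained, so crossed regions were more numerous than gained ones.

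**Figure D1:**
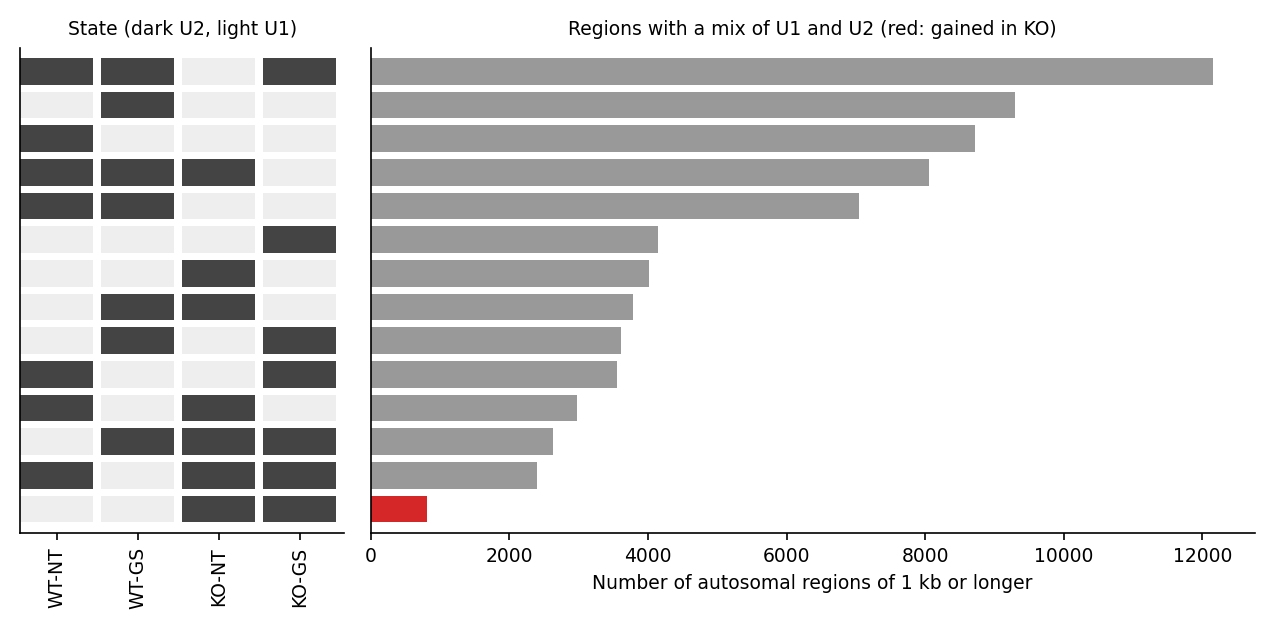
Number of autosomal regions of 1 kb or longer (x axis) for each of the 14 mixtures of U1 and U2, with the state of each segmentation on the left (dark U2, light U1). The gained pattern, in red, has 813 regions, the shortest bar, and U2 in all but KO-NT has the longest.

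A gain of U2 in KO under 1 treatment was in most bins absent under the other. Of the bins U1 in both WT, 1.07% were U2 in KO-NT and 0.965% in KO-GS. Of the 87013 bins that were U2 in KO-NT, 13.4% were U2 in KO-GS too, and 85.9% were U1 there. Starting from the 78580 bins that were U2 in KO-GS, 14.8% were also U2 in KO-NT. Both shares were above those among all bins U1 in both WT, 0.965% for KO-GS and 1.07% for KO-NT. Loss of U2 was the more frequent change: of the bins U2 in both WT, 16.1% were U1 in KO-NT and 13.6% in KO-GS. Of the bins lost in KO-NT, 35.0% were lost in KO-GS, and 41.5% of those lost in KO-GS were lost in KO-NT, also above those base shares. As regions, 4021 were U2 in KO-NT alone and 4139 in KO-GS alone.

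The gained regions were short. Their median length was 2000 bp, with quartiles of 1400 and 3000 bp, and 428 of them (52.6%) reached 2 kb, 74 (9.10%) reached 5 kb and 4 reached 10 kb. Lost regions were somewhat longer, with a median of 2400 bp and 16.7% at 5 kb or more. The threshold of 1 kb fell in the middle of a continuous range of lengths, since 96 runs measured exactly 800 bp and 88 exactly 1000 bp. In all there were 1524 runs of any length, 325 of them a single bin, and the regions of 1 kb or more held 87.9% of their sequence.

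The longest gained region spanned 14400 bp on chromosome 15 from 10058601 to 10073000. It took up the whole of a 14.4 kb stretch that was U1 in both WT. The KO U2 segments that held it measured 16.6 kb in NT and 22.4 kb in GS, the region included. The second spanned 12000 bp on chromosome 12 from 54117601 to 54129600, with WT-GS becoming U2 at its right end and KO-NT leaving U2 at its left end. The third spanned 11200 bp on chromosome 18 from 28878201 to 28889400. Both KO segmentations had a U2 segment there of about the region's own size (12.2 kb in NT, 11.4 kb in GS). The nearest mark in either WT was about 20 kb away. KO-NT had a further U2 segment nearby, from -25.8 to -13.4 kb relative to the region's centre. The 3 regions thus differed in arrangement. The first filled a WT stretch between marks, with both genotypes changing at its left end and WT-GS alone at its right end. The second lay between a KO border and a WT border, and KO alone changed at both ends of the third.

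**Figure D2:**
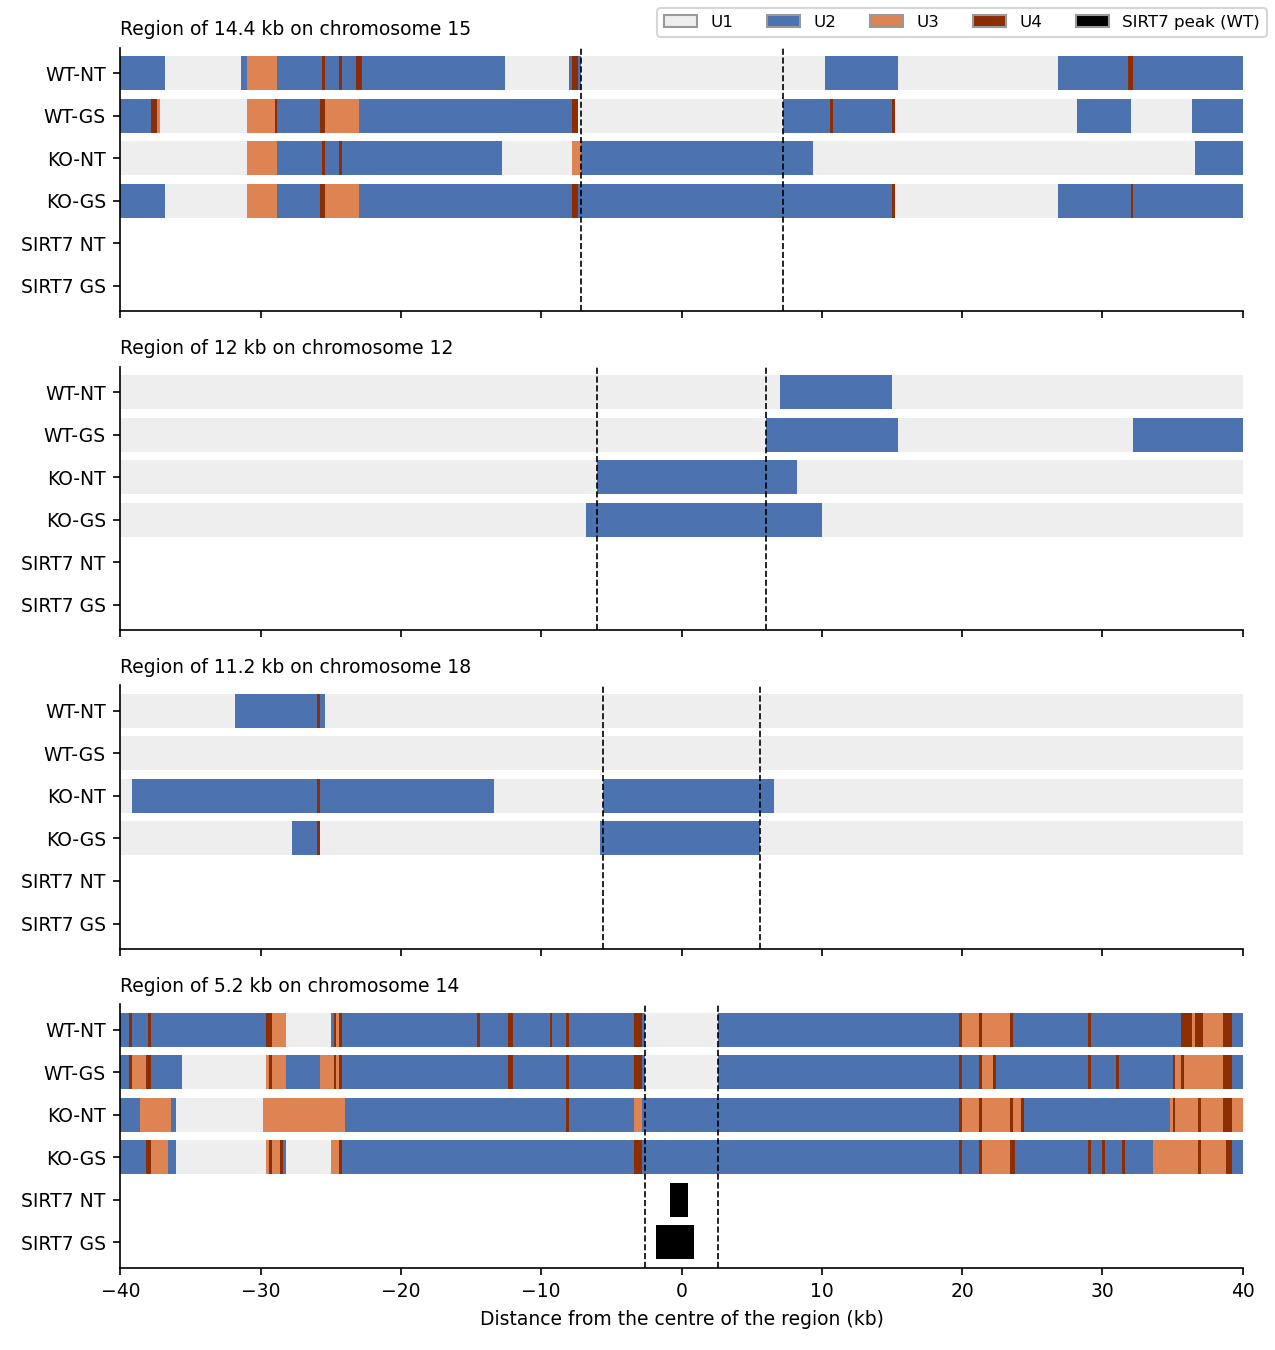
States of the 4 segmentations (rows) and SIRT7 peaks of WT cells (lower 2 rows) within 40 kb of the centre of the 3 longest gained regions and of the 5200 bp region on chromosome 14 that overlaps a peak of both lists; dashed lines are region ends and the x axis is distance in kb. Between the dashed lines both WT rows are U1 (light) and both KO rows U2 (blue), and on chromosome 14 both WT rows have the same gap with a SIRT7 peak inside it.

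The other 7 of the 10 longest measured between 8400 and 10200 bp. A region of 10200 bp on chromosome 2 from 45826001 to 45836200 filled a WT U1 stretch of 10.2 kb between U2 of WT-GS on both sides, within KO U2 segments of 62 kb in NT and 33.6 kb in GS. On chromosome 4 from 66471401 to 66481200, 9800 bp closed a WT U1 stretch of the same length whose right side was U2 in all 4 segmentations. On chromosome 16 from 72383401 to 72392600, 9200 bp next to U2 of all 4 segmentations lay at the edge of a KO-NT segment of 64.4 kb. Those on chromosome 14 from 110406601 to 110416000 and on chromosome 2 from 14729201 to 14737600 lay 263.8 and 60.4 kb from the nearest bin that was U2 in both WT. A bin marked in at least 1 WT segmentation was nearer, at 5.6 and 4.6 kb. The remaining pair, on chromosome 17 from 37128601 to 37137200 and chromosome 3 from 86001401 to 86009800, each had U3 of KO-NT at the left end and U2 of WT-GS at the right end. An 11th region equalled the last of these in length, 8400 bp, on chromosome 13 from 5388801 to 5397200. It filled its WT U1 stretch of 8.4 kb, inside KO U2 segments of 176.8 kb in NT and 158.6 kb in GS. So the longest regions included both filled WT gaps and stretches far from shared WT U2.

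At most ends of the gained regions a single segmentation changed state. Of 1626 ends, 1420 (87.3%) had a change in 1 segmentation only, and the 4 segmentations shared these about evenly: WT-NT alone at 312 ends, WT-GS alone at 369, KO-NT alone at 338 and KO-GS alone at 401. The sequence beyond the end was most often U2 in KO-NT alone (342 ends, 21.0%), U2 in all but WT-NT (334 ends, 20.5%), U2 in KO-GS alone (288 ends, 17.7%) or U2 in all but WT-GS (282 ends, 17.3%). Ends where all 4 segmentations were U2 beyond the border numbered 55 (3.38%), and ends where all 4 were U1 numbered 49 (3.01%). A border at which both WT segmentations changed was found at 96 ends (5.90%) and one at which both KO segmentations changed at 90 ends (5.54%). Borders shared by both segmentations of a genotype were therefore few among the ends. By the rule, a region ends at the first bin where any 1 of the 4 segmentations changes, which favours ends set by 1 segmentation. Lost regions were alike in this, with 86.2% of ends set by 1 segmentation.

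In 12 of the 813 gained regions the 2 segmentations of a genotype changed together at both ends, and these were singled out after their values were seen. Both WT did so in 6 regions (0.738%), which means that WT had the same U1 stretch under both treatments and KO was U2 across it. They were 6400 bp on chromosome 7 from 81226401 to 81232800, 5600 bp on chromosome 14 from 103075601 to 103081200, 5200 bp on chromosome 14 from 62554401 to 62559600, 4600 bp on chromosome 5 from 4354201 to 4358800, 2800 bp on chromosome 4 from 105353601 to 105356400 and 2000 bp on chromosome 18 from 25004001 to 25006000. In the 4 of these that lay on chromosomes 14, 5 and 4, all 4 segmentations were U2 on both sides, so the WT gap was a hole in a U2 segment that ran through in KO. The KO segments around those holes measured from 11.8 to 48.2 kb. Both KO changed together at both ends in 6 other regions (0.738%), none longer than 4400 bp. Among these a region of 1400 bp on chromosome 1 from 193069601 to 193071000 had U1 in all 4 segmentations on both sides, so that the KO-NT and KO-GS segments were the same 1.4 kb, inside a WT U1 stretch of 31.6 kb. Among lost regions, the genotypes' shares of such shared ends were 0.709% for WT and 0.326% for KO.

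By which genotype changed at the ends, most gained regions lay between a WT border and a KO border. This grouping was made after the values were seen. In 475 regions (58.4%, Wilson 95% interval 55.0 to 61.8%) only WT changed at one end, mostly by becoming U2, and only KO at the other, so that U2 reached farther in KO than in WT. In 129 regions (15.9%, interval 13.5 to 18.5%) only WT changed at both ends, so KO U2 ran across a stretch that was U1 in WT. This share depended on length, since it was 9.25% with a minimum of 200 bp and 24.1% with 2 kb. In 144 regions (17.7%, interval 15.2 to 20.5%) only KO changed at both ends, so that WT U1 went on beyond them. In 65 of these 144 neither KO segment held a bin marked in WT, and in the other 79 a KO segment reached sequence marked in WT. The remaining regions, also 65, had an end at which both genotypes changed. These intervals cover counting error only and treat regions as independent, which close neighbours are not. Lost regions had a like split, with 50.6% between a WT and a KO border, 23.2% with 2 WT ends and 16.3% with 2 KO ends. Among gained regions the share between a WT and a KO border was 48.6% with a minimum of 2 kb and 45.1% with chromosome X.

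The 3 arrangements differed in size. Regions with 2 WT ends, for short called closed gaps, had a median of 3200 bp. Those with a WT end and a KO end, for short called displaced borders, had 1800 bp, and those with 2 KO ends 2000 bp. An end counted as WT when either WT segmentation changed, to any other state. Both WT changed at both ends in only 6 of the 813 regions, so closed gaps mostly lacked limits shared by both treatments. Closed gaps lay in KO U2 segments with a median of 22.2 kb in NT and 19.2 kb in GS, and regions with 2 KO ends in segments of 4.40 and 3.40 kb. The grouping itself favours this difference. By definition both KO segments ran past a closed gap on each side, while a KO segment stopped at each of 2 KO ends. Among the 74 regions of at least 5 kb, closed gaps were the most frequent, with 30 (40.5%) against 27 displaced borders (36.5%) and 9 with 2 KO ends (12.2%). The predominance of displaced borders therefore held for the whole set and not for its longest members.

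Gained regions lay near U2 that WT cells had under both treatments, though seldom in contact with it. Distances to WT states were counted from bin to bin, so that an adjoining bin is 0.2 kb away. The median distance to a bin that was U2 in both WT was 2.80 kb, with quartiles of 1 and 9 kb. Such a bin adjoined 1 end of 48 regions (5.90%) and both ends of the 4 holes named above (0.492%), so 761 regions (93.6%) touched none. With WT U2 looked for within 5 kb of each end these shares became 54.0%, 10.3% and 35.7%, and with any mark in either WT in the adjoining bin 63.6%, 18.7% and 17.7%. Whether a region counted as border or interior thus depended on the reach. A mark in at least 1 WT segmentation adjoined 669 regions (82.3%), and in 152 (18.7%) the region took up the whole WT U1 stretch.

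The share of WT U1 sequence that was gained declined with distance from WT U2. Among bins U1 in both WT and up to 1 kb from a bin U2 in both, 2.47% lay in a gained region. The share was 0.477% at 5 to 10 kb, 0.150% at 10 to 20 kb and 0.0120% beyond 100 kb. Bins within 5 kb made up 4.30% of WT U1 sequence and held 54.9% of the gained sequence. U2 in a single KO segmentation had a like decline, from 14.3% in KO-NT and 16.4% in KO-GS within 1 kb to 0.171 and 0.0942% beyond 100 kb. Short WT U1 stretches were also gained more than long ones: 1.99% of the sequence in stretches over 2 and up to 5 kb was gained, against 0.0206% in stretches over 100 and up to 500 kb.

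**Figure D3:**
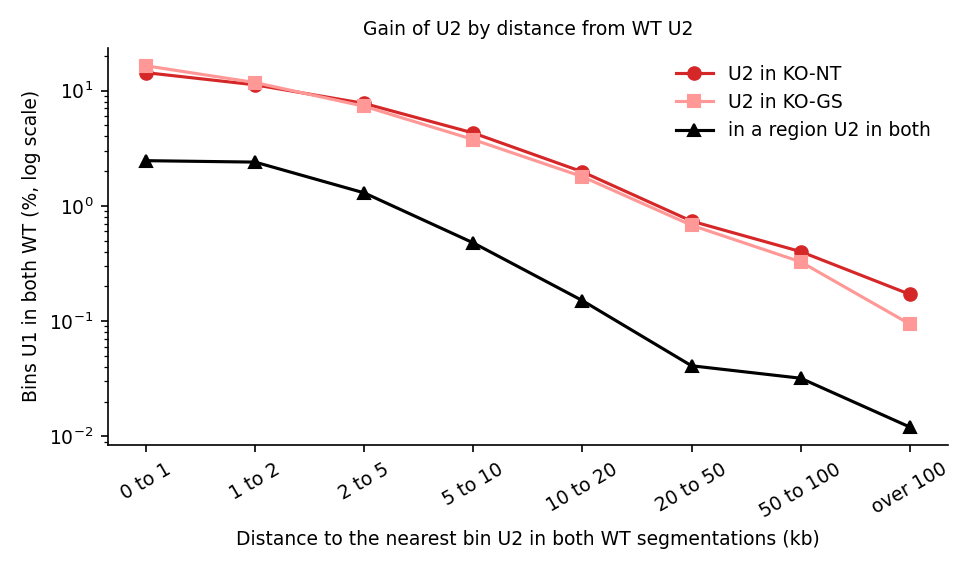
Percent of bins U1 in both WT (y axis, log scale) that were U2 in KO-NT, U2 in KO-GS or inside a gained region, by distance to the nearest bin U2 in both WT (x axis, kb). All 3 lines go down with distance, the gained regions from 2.47% within 1 kb to 0.0120% beyond 100 kb.

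Beyond their immediate edges, the gained regions lay in surroundings where KO had less U2 than WT, as on the autosomes as a whole. Sequence 10 to 50 kb away was U2 in 35.3% of bins in KO-NT against 38.1% in WT-NT, and in 30.6% in KO-GS against 41.0% in WT-GS. All 4 values were above those of the autosomes as a whole, which were 17.2% (KO-NT), 20.8% (WT-NT), 17.6% (KO-GS) and 20.9% (WT-GS). Within 1 kb of the ends, U2 made up 66.5% of bins in KO-NT against 25.2% in WT-NT, and 63.2% in KO-GS against 28.4% in WT-GS. The rule itself favours this excess. A single segmentation changed at 87.3% of ends, so sequence just outside mostly kept the states that chose the region. The excess of KO ended within 10 kb: at 5 to 10 kb KO minus WT was -0.763 percentage points in NT and -6.18 in GS. At 10 to 50 kb it was -2.78 in NT and -10.4 in GS, where the autosomes as a whole had -3.62 and -3.30. The deficit of KO was thus smaller than on the autosomes as a whole in NT and larger in GS. U3 and U4 together were less frequent at 10 to 50 kb, from 6.14 to 6.33% over the 4 segmentations, than on the autosomes, from 9.30 to 10.1%.

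**Figure D4:**
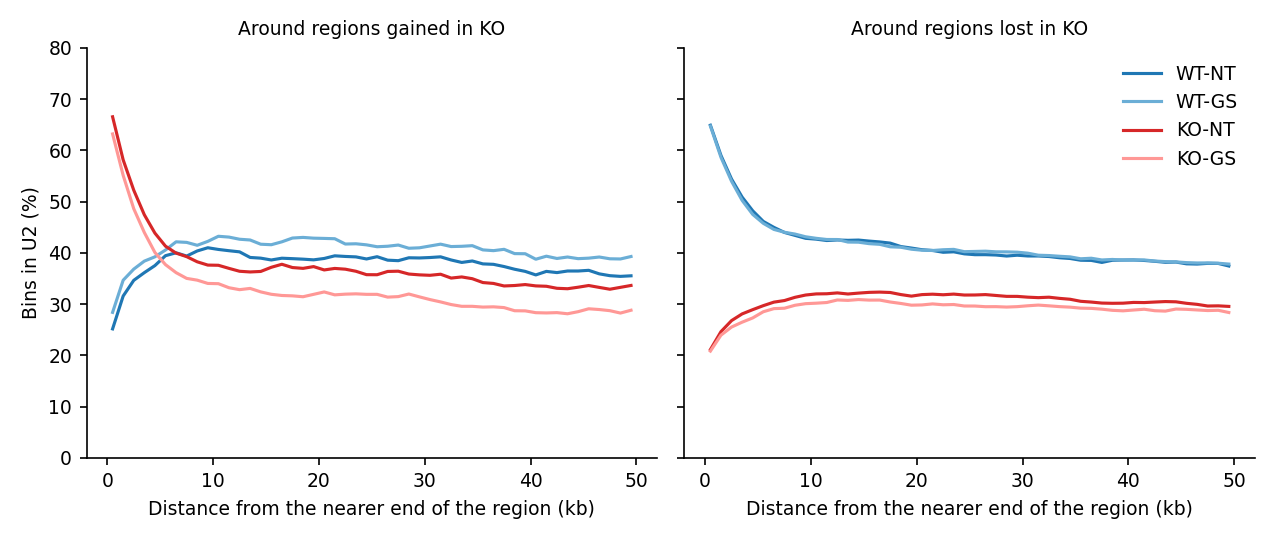
Percent of bins in U2 (y axis) in 1 kb steps up to 50 kb outside gained regions (left) and lost regions (right), for the 4 segmentations. Around gained regions the KO lines start above 60% and are below both WT lines from about 10 kb on.

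Taken region by region, the surroundings 5 to 50 kb away had less U2 in KO than in WT for 447 of 813 regions in NT and 602 in GS. Both treatments went that way for 307 regions (37.8%), while 37 (4.55%) had more U2 in KO under both. The opposite signs of more U2 in KO-NT and less in KO-GS were found in 281 (34.6%). Around lost regions, surroundings with less U2 in KO under both treatments were found for 59.7%, but the lost pattern itself chose less U2 in KO. The NT comparison had more U2 in KO in the surroundings of 332 regions (40.8%), and the GS comparison in those of 164 (20.2%). More U2 in the surroundings under both treatments was therefore seldom found, and the NT and GS comparisons often differed in sign. Such counts were not made for sequence at large, and the autosomes as a whole had less U2 in KO under both treatments.

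Only a small part of the gained regions were U2 domains with no WT counterpart. In 76 regions (9.35%) neither the KO-NT nor the KO-GS segment that held the region contained a bin marked in either WT. They were found on all 19 autosomes, measured 1800 bp at the median, and covered 180.8 kb in all. After the region of chromosome 18 named above, the longest of them were 7000 bp on chromosome 5 from 98485201 to 98492200, 5400 bp on chromosome 2 from 62409601 to 62415000, 5400 bp on chromosome 11 from 37850601 to 37856000 and 4800 bp on chromosome 12 from 95959201 to 95964000. The region on chromosome 11 lay 46.6 kb from any WT mark. Farthest of all from a WT mark were 1200 bp on chromosome 16 from 54788601 to 54789800, at 189.2 kb, and 1800 bp on chromosome 4 from 146022601 to 146024400, at 183 kb, in KO-NT segments of no more than their own length.

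Gained regions were found on all autosomes, at densities that differed up to 2.55 times. Chromosome 7 had the fewest for its length, 0.190 regions per Mb, and chromosome 10 the most, 0.485, followed by chromosomes 4 and 3 with 0.469 and 0.451. The mean of the 19 values was 0.329 with an SD of 0.0870. In length, the mean was 0.823 kb per Mb (SD 0.247), highest on chromosome 13 with 1.28. Chromosomes 7 and 10 were also the lowest and the highest in lost regions, with 1.46 and 3.66 per Mb. They differed in U2 as well: in WT-NT it covered 14.4% of chromosome 7, the least of all, and 26.6% of chromosome 10. Chromosome 4, second in gained density, had 18.5%, below the 20.8% of the autosomes as a whole. Lost regions outnumbered gained ones on each of the 19 chromosomes, by 4.85 times on chromosome 4, the smallest ratio, and 13.2 times on chromosome 9. The SD describes spread along the genome, since each segmentation exists once.

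**Figure D5:**
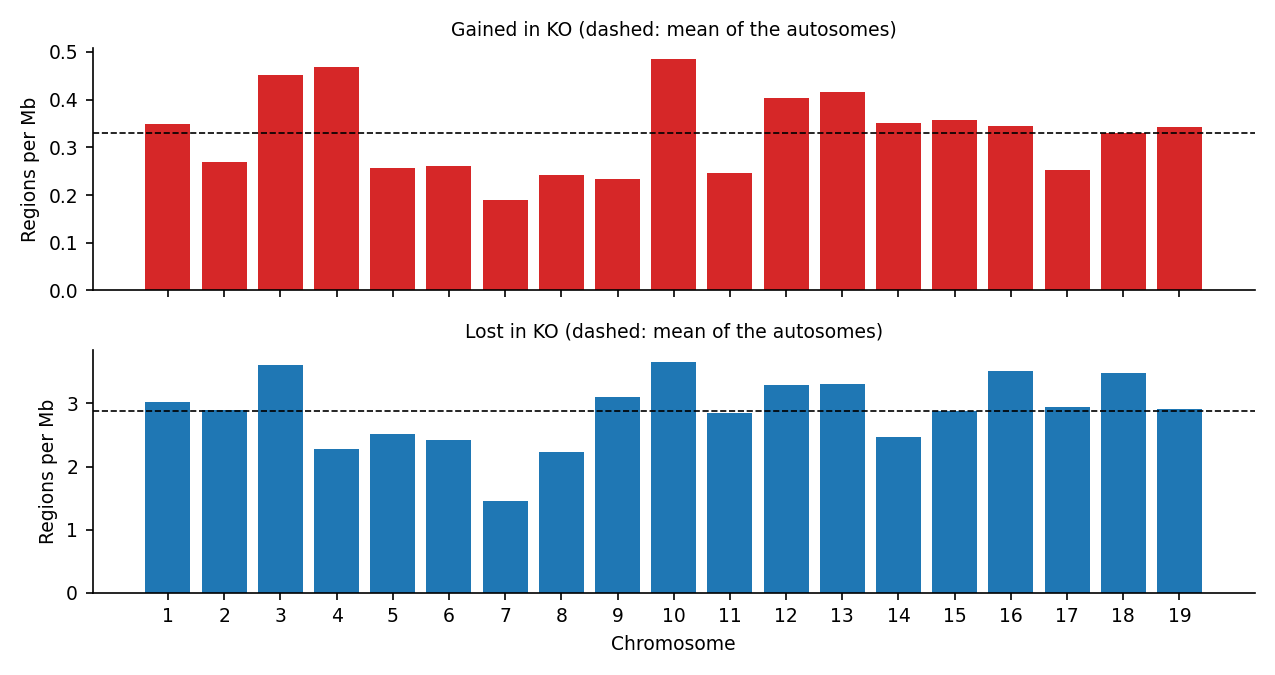
Regions per Mb of chromosome length on chromosomes 1 to 19, gained in KO (top) and lost in KO (bottom), with the mean of the 19 values as a dashed line; the y axes differ. Chromosome 7 is lowest and chromosome 10 highest in both panels.

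Along the chromosomes, gained regions thinned toward the distal end. With each chromosome cut into 10 equal parts, part 10, the distal end, held 55 regions (6.77%), and part 4 held the most, 109 (13.4%). WT U1 sequence was spread more evenly, with 8.86% in part 10 and 9.53% in part 4, and lost regions had 10.3% in each of these. It too was lowest in part 10, and WT U1 sequence was highest in part 1 with 11.8%, where gained regions had 10.7%. None of the gained regions lay in the initial 3 Mb of a chromosome, which belong to part 1.

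The regions were scattered, with some local groups. Of 2482 windows of 1 Mb, 581 (23.4%) held the start of a gained region, 424 of them only 1, 110 held 2 and 47 held 3 or more. The median distance to the nearest other gained region was 503.4 kb, and 78 regions (9.59%) had another within 10 kb. Lost regions shared this ground: 502 of the 581 windows (86.4%) held a lost region too, whereas 69.8% of all windows had the start of 1.

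In 5 of the 6 windows with the most gained sequence, U2 was high in WT-GS and KO-NT and low in the other pair. The window on chromosome 10 from 16000001 to 17000000 held 5 gained regions with 21 kb, and U2 covered 78.9% of it in WT-GS, 77.6% in KO-NT, 67.1% in KO-GS and 62.6% in WT-NT. The window on chromosome 13 from 26000001 to 27000000 held 5 with 19.6 kb, and its shares were 69.2, 67.4, 49.7 and 45.6% in the same order. That on chromosome 8 from 7000001 to 8000000 held 4 with 16 kb and had 51.7, 49.1, 33 and 38.8%, and that on chromosome 5 from 48000001 to 49000000 held 5 with 14.4 kb and had 34.2, 32.3, 21.0 and 23.1%. On chromosome 4 from 66000001 to 67000000, 2 regions held 16.4 kb, with 22.6, 26.4, 17.8 and 18.5%. In these 5 windows WT-GS and KO-NT both stood above WT-NT and KO-GS, so the genotypes differed in opposite directions in NT and in GS over the window as a whole. This order was found in 117 of the 581 windows with a gained region (20.1%) and in 257 of all 2482 windows (10.4%), so most windows with a gained region did not have it. The 5 windows also held from 1 to 11 lost regions each, with 2.80 to 35.2 kb. The other, on chromosome 15 from 10000001 to 11000000, held 14.4 kb through the longest region alone, and its shares of 44.3, 37.6, 40.0 and 39.6% did not have this order.

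SIRT7 peaks of WT cells overlapped 3 gained regions, a share close to that of lost regions. Of the 2272 GS peaks on autosomes, 3 overlapped a gained region by at least 1 bp. They lay on chromosome 14 (region from 62554401 to 62559600, peak from 62555199 to 62557874), chromosome 15 (region from 25237001 to 25240000, peak from 25236913 to 25238495) and chromosome 12 (region from 9723601 to 9726800, peak from 9723895 to 9724258). On chromosome 14 the GS peak measured 2676 bp and had a deposited score of 820, and an NT peak of 1278 bp, from 62556158 to 62557435 with a score of 618, lay in the same place. Both lay wholly inside the region, with midpoints 0.464 and 0.204 kb from its own. This region is 1 of the 4 holes described above, with a WT U1 stretch of the same 5.2 kb and a U2 segment of 22.6 kb in KO-NT and in KO-GS. It was the sole region of the 813 in which peaks of both lists lay. The next nearest to GS peaks were regions on chromosome 13 from 75461801 to 75463000 and chromosome 4 from 5305001 to 5306200, with peak midpoints 2.13 and 5.42 kb from their own. The 3 were 0.369% of gained regions (Wilson 95% interval 0.126 to 1.08%), and 23 of the 7051 lost regions (0.326%) overlapped a GS peak. Counted in bins, GS peaks covered 0.254% of the gained sequence and 0.189% of all bins U1 in both WT. Of the 58 autosomal NT peaks, the one on chromosome 14 was the single peak to overlap a gained region.

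In the wider neighbourhood, up to 100 kb, the share of gained regions near a GS peak was close to that of WT U1 sequence at large. It was above that of WT U1 sequence near WT U2 and that of lost regions. A GS peak had its midpoint within 100 kb of 154 regions (18.9%, Wilson 95% interval 16.4 to 21.8%), where 16.9% of all bins U1 in both WT had one. Among bins U1 in both WT within 5 kb of WT U2, where most regions lay, the share was 14.3%, and at 5 to 50 kb 12.6%. Among lost regions it was 14.9% (interval 14.1 to 15.8%). The intervals treat regions as independent, which close neighbours are not. With GS peaks within 10 kb the share was 1.85% for gained regions (15 regions), 2.06% for WT U1 bins and 1.93% for lost regions. It was 1.88% for WT U1 bins within 5 kb of WT U2. NT peaks lay within 100 kb of 5 gained regions (0.615%), where 0.466% of WT U1 bins had one, and within 10 kb of 1 region (0.123%), against 0.0503% of bins. Beside the hole on chromosome 14, these were 1200 bp on chromosome 13 from 27350401 to 27351600, 1800 bp on chromosome 4 from 146022601 to 146024400, 1400 bp on chromosome 9 from 87911601 to 87913000 and a longer one, 6400 bp, on chromosome 1 from 44905801 to 44912200, with peak midpoints from 53.0 to 99.1 kb away. The median distance to a GS peak was 395.3 kb for gained regions, 446.6 kb for lost regions and 453.2 kb for WT U1 bins. These differences have no test, because each list exists once per treatment, and SIRT7 was not mapped in KO cells.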

How the data were processed

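The authors deposited 4 chromatin segmentations of mouse embryonic fibroblasts, 1 per genotype and treatment, which give a state name (U1 to U4) to each 200 bp bin, and 2 SIRT7 peak lists of WT cells with 1 score per peak. Per the labels, each segmentation stands for both replicates of H3K27me3 and mH2A1 and each list for both SIRT7 replicates. MACS 1.4.2, deepTools 2.4.2, SAMtools 0.1.19, Bowtie, Trimmomatic 0.36 and FastQC 0.11.3 are listed in the submitters' processing notes, with the builds mm9 and hg19. The sources used here do not give the segmentation tool, the peak settings, the meaning of the deposited score or the read depth. Coordinates are mm9, counted from 1. An mm9 sequence or gene annotation was not used here, so regions are named by position.

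Segmentations were read into 200 bp bins on chromosomes 1 to 19 with Python 3.11.15 and numpy 2.4.6. Region finding and border classes were checked on made-up segmentations. Peak distances were between midpoints, and overlap required 1 bp. No test was run: replicates were pooled before deposit and the rule used all 4 segmentations. Named regions were the 10 longest, the 5 longest in contact with no shared WT U2, the 5 windows of 1 Mb with the most gained sequence and the 5 overlapping or nearest to GS peaks. The 5 longest without WT counterpart, those farthest from WT marks, those with shared ends and those near NT peaks were added after the values were seen. The regions and comparisons were chosen with earlier results of these data known.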

Additional observations from a re-analysis of the deposited data

How the results depend on the processing

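No paired analysis was possible because each segmentation and peak list pools the replicates, and leaving out a replicate was not possible for the same reason. With a minimum of 200 bp, 2 kb and 5 kb in place of 1 kb, the gained regions numbered 1524, 428 and 74, covered 2331.6, 1520.8 and 492.8 kb, had medians of 1000, 3000 and 6200 bp, and lost regions were 6.86, 10.8 and 15.9 times as many. Joining runs across gaps of up to 400 bp gave 2065.8 kb and a ratio of 8.32, joining segments under 1 kb to their neighbours 2109.6 kb and 8.20, and bins of 1 kb 2352 kb and 7.40. Counting U2, U3 or U4 in both KO as gained gave 2861.2 kb, a median of 1800 bp and a ratio of 7.61. With chromosome X added there were 1464 regions with 3618.2 kb and a ratio of 4.82. The gained pattern had the fewest regions of the 14 mixtures in all 7 alternatives where the mixtures could be counted. The share of regions with WT changes alone at both ends was 9.25, 24.1 and 40.5% with a minimum of 200 bp, 2 kb and 5 kb, 10.4% with bins of 1 kb, 21.6% with U2, U3 or U4 in KO and 10.3% with chromosome X, against 15.9%. With WT U2 sought within 1 kb of each end, it was found at neither end of 70.4% of regions, at 1 end of 27.7% and at both ends of 1.97%. Within 5 kb the shares were 35.7, 54.0 and 10.3%, and with any WT mark in the adjoining bin 17.7, 63.6 and 18.7%. The share of regions near SIRT7 peaks was 1.85% within 10 kb, 0.615% with the NT list, and 10.8% with GS peaks at or above the median score, where 9.37% of WT U1 bins had such a peak. Read depth is unknown, so how far depth sets the borders was not tested.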

Other observations

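Chromosome X, which the rule leaves out, went the other way from the autosomes. It held 651 regions of at least 1 kb that were U1 in both WT and U2 in both KO, with 1569.6 kb, or 3.91 per Mb against 0.329 on the autosomes, a ratio of 11.9. Its regions had the same median length, 2000 bp, and reached 10400 bp. Regions lost in KO under both treatments numbered 9 on X, with 20.2 kb, so gained regions outnumbered lost ones there by 72.3 to 1. U2 covered 7.21% of X in KO-NT against 3.67% in WT-NT, and 9.11% in KO-GS against 5.98% in WT-GS. With X added, the share of regions with only KO changes at both ends was 34.0% in place of 17.7%.

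A change from U1 in both WT to U3 in both KO was also mostly found on X, with 1361 regions of at least 1 kb and 3035.2 kb there against 264 regions and 435.8 kb on the 19 autosomes. These X regions were chosen after their values were seen and have no test. The number of embryos and their sex are not given in the labels, so genotype and embryo cannot be told apart.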
